A study of Mus musculus with 11 samples.

Results

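This section describes 9 genes of liver endocrinology in db/db mouse liver: the leptin receptor gene Lepr, the adiponectin receptor genes Adipor1 and Adipor2, and 6 genes of proteins that the liver secretes, Angptl4, Angptl6, Lect2, Fetub, Ahsg and Rbp4. They were chosen by name, and every gene probe designed on a RefSeq transcript of one of them was taken. This gave 12 probes, 4 for Lepr and 1 for each other gene, and all 9 genes were among the 15953 genes tested, of 20144 named on the array. Liver RNA came from 6 db/db mice that received the monoclonal antibody 3c7.v44 at 5 mg/kg, which binds the glucagon receptor (anti-GCGR, replicates 1 to 6), and from 5 db/db mice given phosphate-buffered saline (PBS, replicates 1, 3, 4, 5 and 6). All animals of both groups carried the db/db genotype, and no lean mice were used here. The labels do not give age, sex, or the number and timing of doses. Each sample is taken as 1 mouse, which the labels do not state outright, so the p-values measure only the spread between these samples.

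The db mutation alters splicing of Lepr and removes the long, signalling form of the leptin receptor, so that these mice lack leptin action, overeat and become obese and diabetic. Short forms of the receptor are still made, and Lepr probes therefore report transcript and not a working receptor. Glucagon acts on hepatocytes through a receptor that raises cyclic AMP, and the antibody was given to block it. The liver also takes in signals from fat, among them adiponectin, through Adipor1 and Adipor2, and sends out proteins known as hepatokines, which act on other tissues.

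Each array carried liver RNA labelled with Cy5 beside Cy3-labelled RNA of a universal mouse reference pool, and the values below are log2 ratios of liver over reference. A ratio tells how a gene differs between livers, and no gene's level was ranked against another's from it. Where the ratios of 2 genes are subtracted, the difference was compared only between groups. The median Cy5 spot signal was 85 to 110 per array over a background of 26 to 27, 66.2% to 77.1% of spots were well above background, and no spot was saturated. The arrays lay on 3 slides, each with both groups. PBS samples lay only at positions 1 and 2 of a slide (on slide 2 only at position 2) and anti-GCGR samples only at positions 3 and 4, so position on the slide and treatment cannot be told apart. Anti-GCGR replicate 5 stood apart, with a median correlation of 0.982 to its own group over all genes, against 0.990 to 0.994 for the other replicates of both groups. The 8 hepatocyte marker genes were well above background on all 11 arrays, and 0 of them passed limma's test, as 14.6% of all genes tested did. At an unadjusted p under 0.05 there were 4, with 1 higher and 3 lower (17.7% and 12.8% of all genes). Their mean log2 ratio was 5.85 to 6.03 in anti-GCGR livers and 5.82 to 6.06 in PBS livers. That holds for ratios only, as some of these markers differed between groups in both channels. Tat differed by -1.53 in liver and -1.17 in the reference, Cps1 by -0.94 and -0.44, and Apoa1 by 1.45 and 1.04. The remaining hepatocyte markers differed by less in either channel. Gcgr itself, whose protein the antibody binds and whose gene it leaves intact, differed by 0.18 in log2 ratio (adjusted p = 0.108 by limma). Without anti-GCGR replicate 5 the Gcgr difference was 0.24 (adjusted p = 0.00778), and the other 10 fits that left out 1 array did not call it.

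Of the 9 genes 2 rose and 0 fell, where 8.98% of all genes tested rose and 5.67% fell (limma adjusted p under 0.05, 14.6% in either direction). At an unadjusted p under 0.05 the members' counts were 3 higher and 0 lower, where 17.7% of all genes tested were higher and 12.8% lower. Over all genes 1432 were higher and 904 lower, and the split followed the scaling, with 582 higher and 2146 lower when arrays were centred on their medians in place of loess. Of the 9 log2 fold changes 6 lay above 0, as did 53.7% of those of all genes. Their median was 0.06, beside 0.01 over all genes tested. Adipor2 was the only one of the 9 whose groups did not overlap, as held for 6.65% of all genes. The 2 rises were those of Adipor2 and Lepr, and that of Lepr was lost in 9 of the 11 fits that each left out 1 array. Adipor1 did not pass, nor did any of the 6 secreted proteins' genes. Of these 6, Angptl4 had the largest log2 fold change of all 9 genes (0.73).

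**Figure D1:**
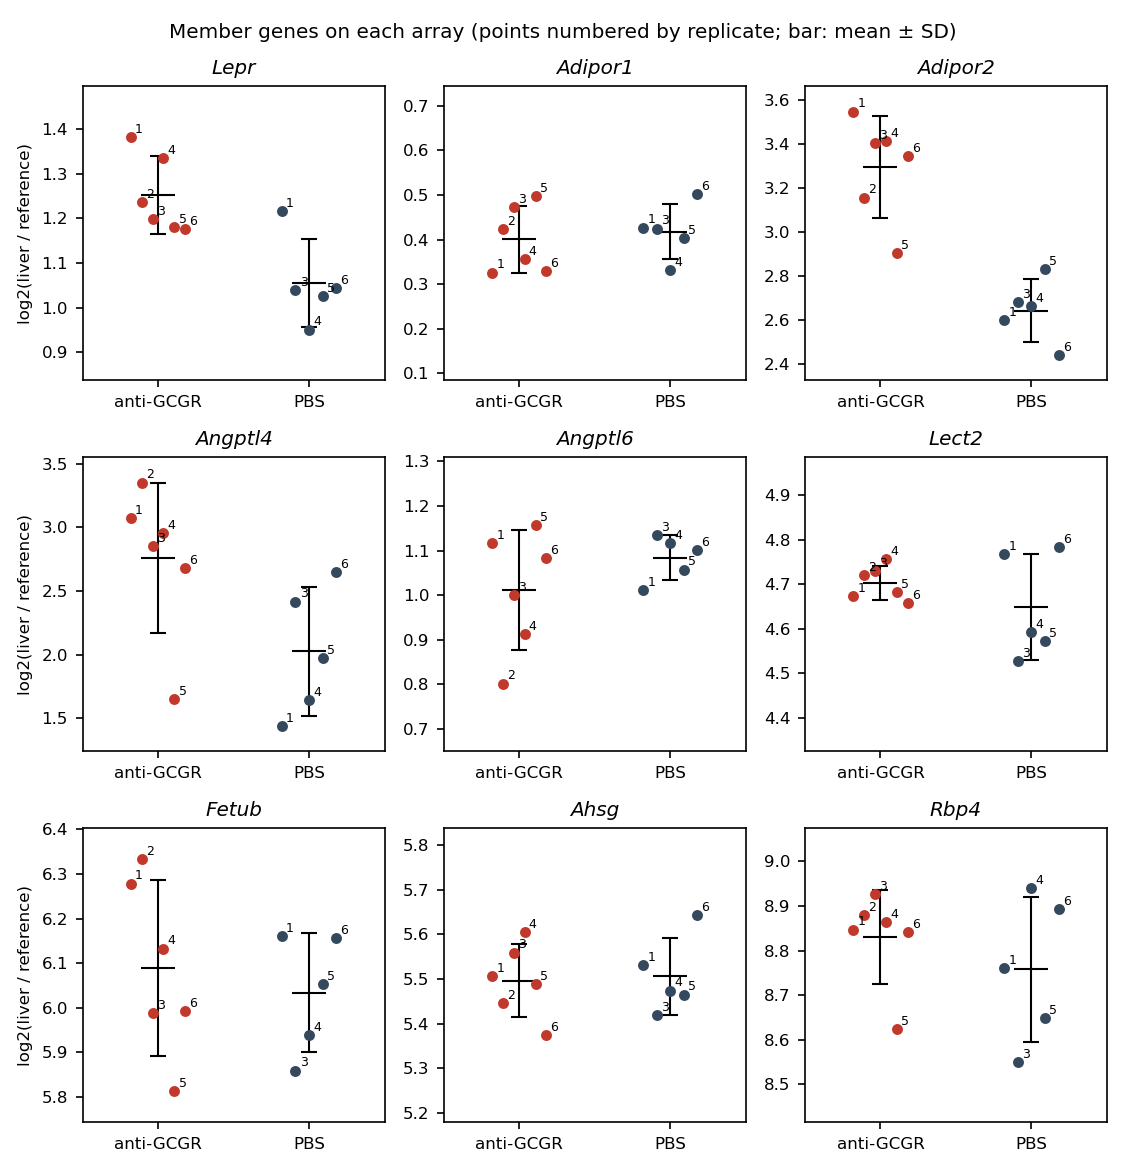
Log2 ratio of liver over reference (vertical axis) on each array for the 9 genes, one panel per gene, with anti-GCGR livers left of PBS livers. Points are arrays and bars are group means with their SD. Adipor2 separates the groups, and the anti-GCGR values of Angptl4 range from 1.65 to 3.35.

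**Figure D2:**
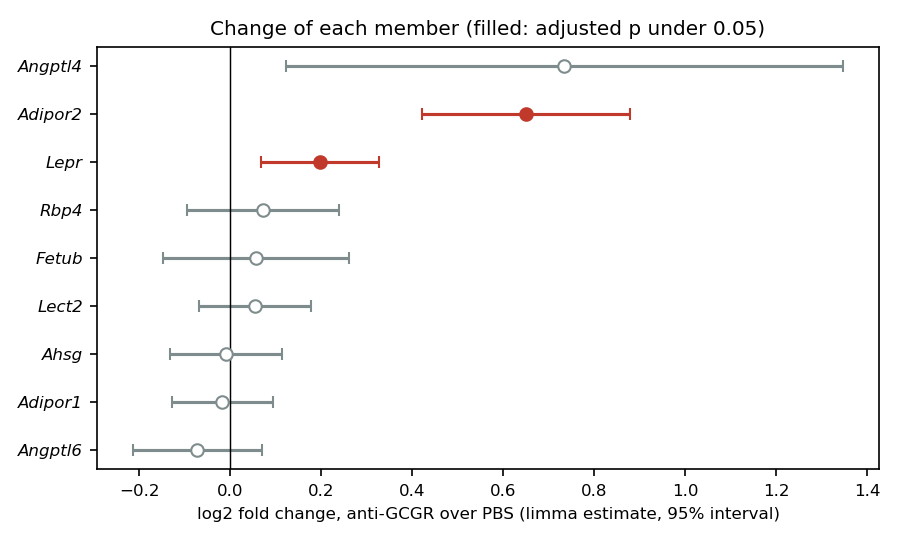
Log2 fold change of anti-GCGR over PBS livers (horizontal axis) with its 95% interval from limma, for the 9 genes ordered by size. Filled points passed an adjusted p of 0.05. Adipor2 and Lepr passed, and Angptl4, with the largest estimate, had the widest interval (0.12 to 1.35).

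Adipor2, the adiponectin receptor best known from liver, rose 1.57-fold in anti-GCGR livers. Its log2 ratios were 3.55, 3.16, 3.40, 3.41, 2.90 and 3.34 in anti-GCGR replicates 1 to 6, against 2.60, 2.68, 2.66, 2.83 and 2.44 in PBS replicates 1, 3, 4, 5 and 6. Every anti-GCGR value lay above every PBS value, and the lowest of them, 2.90, came from the replicate that stood apart. The means were 3.29 ± 0.23 in anti-GCGR livers and 2.64 ± 0.14 in PBS livers (SD, n = 6 and 5). The log2 fold change was 0.65 ± 0.11 (SE, 95% interval 0.42 to 0.88, limma adjusted p = 0.00556). The liver channel alone differed by 0.70 and the reference channel by -0.02. Within the slides the anti-GCGR minus PBS difference was 0.85, 0.20 and 0.81 for slides 1, 2 and 3. Slide 2, with the smallest difference, held anti-GCGR replicates 2 and 5 and a single PBS sample, replicate 5, and without anti-GCGR replicate 5 the log2 fold change over all slides came to 0.73, with an adjusted p of 0.000117.

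Adipor1, the paralogous receptor, which is broadly expressed and best studied in muscle, did not pass. Livers of anti-GCGR mice had 0.33, 0.42, 0.47, 0.36, 0.50 and 0.33 (log2 ratios of replicates 1 to 6), against 0.43, 0.42, 0.33, 0.40 and 0.50 in PBS replicates 1, 3, 4, 5 and 6. Both groups covered the same range. The log2 fold change was -0.02 ± 0.05 (SE), and its 95% interval, -0.13 to 0.09, bounds any change of the Adipor1 signal to well under that of Adipor2 on these arrays. The within-array difference, Adipor2 minus Adipor1, was 2.89 ± 0.29 in anti-GCGR livers and 2.23 ± 0.19 in PBS livers (SD, n = 6 and 5). It was larger in anti-GCGR livers by 0.67 (exact permutation test over 462 splits, two-sided p = 0.00649, adjusted p = 0.0130 over 2 pairs, smallest possible p = 0.00216). The groups overlapped narrowly in it, at 2.41 to 3.22 in anti-GCGR livers and 1.94 to 2.43 in PBS livers. The paired receptors thus changed unequally on these arrays. A scaling of a whole array cancels from this difference, but a shift that depends on spot brightness or slide position need not.

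The promoters of the 2 adiponectin receptor genes are shown because the genes lie on different chromosomes and changed unequally after a hormone receptor that works through cyclic AMP was targeted. Adipor2 spans chr6:119353150-119417699 on the minus strand and Adipor1 chr1:134415378-134433351 on the plus strand (GRCm38.p6). Sequences are RefSeq's for that build, 250 bases before to 50 after a transcript start, 5′ to 3′ on the gene's strand. Capitals mark TGACG, the core of the cyclic AMP response element, or its reverse complement CGTCA. The Adipor2 window is chr6:119388685-119388984 and the Adipor1 window the downstream of 2 in the table, chr1:134415414-134415713. The Adipor2 window, the only 1 given for that gene, lies inside the gene's span and not at its 5′ end, 119417699.
Adipor2: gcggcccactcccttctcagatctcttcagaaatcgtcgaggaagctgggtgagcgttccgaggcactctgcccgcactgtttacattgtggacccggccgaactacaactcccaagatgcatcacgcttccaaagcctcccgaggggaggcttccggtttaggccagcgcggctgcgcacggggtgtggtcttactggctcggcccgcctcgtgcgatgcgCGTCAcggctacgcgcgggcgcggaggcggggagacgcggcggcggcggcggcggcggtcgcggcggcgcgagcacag
Adipor1: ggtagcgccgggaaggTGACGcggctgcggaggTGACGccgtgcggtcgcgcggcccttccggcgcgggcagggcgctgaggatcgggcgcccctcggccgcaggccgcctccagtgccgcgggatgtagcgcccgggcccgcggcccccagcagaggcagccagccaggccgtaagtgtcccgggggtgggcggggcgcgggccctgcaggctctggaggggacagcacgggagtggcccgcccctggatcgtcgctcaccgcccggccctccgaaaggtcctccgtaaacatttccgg
Both windows are rich in CpG, with 41 CpG dinucleotides for Adipor2 and 40 for Adipor1, beside a median of 7 over all 32851 promoters of the table. The core occurs once in the Adipor2 window, its first base 28 bases before the start, and at 2 places in the Adipor1 window, 234 and 217 bases before the start. These 5 letters occur, on either strand, in 20.8% of all promoters. The upstream Adipor1 window, chr1:134415128-134415427, has 0 core matches and 21 CpG dinucleotides, so a comparison of the genes by core count depends on which Adipor1 start is taken. The full palindrome TGACGTCA (1.79% of promoters) and the E-box CACGTG (7.15%) had no match in these windows, nor in those of the other members that the table holds. Angptl4 is not among them.

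The adiponectin receptors are PAQR family proteins, membrane receptors with ceramidase activity that act through AMP-activated kinase and PPAR alpha. Of 25 genes tested around these receptors and their signalling, 5 rose and 2 fell (8.98% and 5.67% of all genes). Their median log2 fold change was 0.03. Acacb and Acaca, the acetyl-CoA carboxylases that AMP-activated kinase inhibits, rose by 0.97 ± 0.17 and 1.30 ± 0.29 (log2 fold change, SE; limma adjusted p = 0.00621 and 0.0137). The other kept probes of Acaca gave smaller rises, 0.71 and 0.62, and that of Acacb 0.96. Ppargc1a, the coactivator of gluconeogenesis and oxidation that glucagon induces, fell by 0.80 ± 0.11 (0.00409), with no overlap between groups, and had -0.61 on its other kept probe. Ppara, the nuclear receptor, had a log2 fold change of 0.32 ± 0.09 (0.0301), and Camkk2, a kinase upstream of AMP-activated kinase, one of -0.44 ± 0.13 (0.0367), or -0.20 on its other kept probe. Camkk2 was not called in 10 of the 11 fits that each left out 1 array (adjusted p up to 0.0887), the exception being the fit without anti-GCGR replicate 5 (-0.55, adjusted p = 0.000645). The adaptor Appl1, which binds both receptors, had 0.17 ± 0.06 and did not pass (0.0644).

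Among 8 other PAQR family genes tested, 1 rose and 1 fell (8.98% and 5.67% of all genes). Mmd2, a member of the family whose role in liver is little known, had log2 ratios of 1.18 to 3.35 in anti-GCGR livers, against 3.57 to 3.81 in PBS livers. It fell by 1.91 ± 0.30 in log2 terms (adjusted p = 0.00546 by limma) and was the largest change among the 149 genes of the 9 related lists. Paqr4 rose by 0.35 ± 0.07 (0.0113; 0.23 and 0.0550 with median centring). Neither gene's groups overlapped. By the likeness of their departures from the group means over the 11 arrays, the genes nearest to Adipor2 were Pdk1, a pyruvate dehydrogenase kinase (Pearson r = 0.947), Vwce (0.946) and Rcbtb2 (0.934). Pdk1 rose as well (log2 fold change 0.57, adjusted p = 0.0117). Such nearest genes, here and for Lepr below, were picked as the highest r among all genes tested. How high r would run without any link was not tested.

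Lepr rose by a small amount on the probe that stands for the gene, 1.15-fold. Across the arrays the log2 ratios were 1.38, 1.24, 1.20, 1.34, 1.18 and 1.18 in anti-GCGR replicates 1 to 6, against 1.22, 1.04, 0.95, 1.03 and 1.04 in PBS replicates 1, 3, 4, 5 and 6. The groups overlapped through PBS replicate 1, which lay above anti-GCGR replicates 3, 5 and 6, and the other PBS livers lay below every anti-GCGR liver. The means were 1.25 ± 0.09 in anti-GCGR livers and 1.06 ± 0.10 in PBS livers (SD, n = 6 and 5). The log2 fold change was 0.20 ± 0.06 (SE, 95% interval 0.07 to 0.33, limma adjusted p = 0.0444). This call was fragile, and 9 of the 11 fits that left out 1 array did not make it (namely any PBS array but replicate 1, or any anti-GCGR array but replicate 5; log2 fold change 0.17 to 0.21, adjusted p up to 0.105). The fits without PBS replicate 1 (0.24) and without anti-GCGR replicate 5 (0.21, adjusted p = 0.0279) made it. With each array centred on its median in place of loess the log2 fold change was 0.09 (adjusted p = 0.327), and in the liver channel alone 0.06 (0.696), the reference channel differing by -0.08. Within slides 1, 2 and 3 the difference was 0.28, 0.18 and 0.15.

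The other Lepr probes were dimmer and did not all run the same way. Lepr lies at chr4:101717137-101815352 (GRCm38.p6), and the probes were designed on 3 of its RefSeq transcripts, whose receptor forms are not named here because the files do not pair them. A second probe on NM_010704, the transcript of the representative probe, had log2 ratios of 0.65, 0.55, 0.71, 0.37, 0.54 and 0.59 in anti-GCGR replicates 1 to 6, against 0.21, 0.23, 0.24, 0.42 and 0.08 in PBS replicates 1, 3, 4, 5 and 6. Only anti-GCGR replicate 4 lay below a PBS value, that of replicate 5, and the log2 fold change was 0.33 ± 0.07, with an adjusted p of 0.0134 over all kept probes. The probe on NM_001122899 ranged more widely, from 0.31 to 1.34 (median 0.83) in anti-GCGR livers, against 0.25, 0.22, 0.52, 0.56 and 0.09 in PBS livers, with a log2 fold change of 0.47 ± 0.15 (0.0632). The probe on NM_146146 had -0.05 ± 0.07 (0.695), and was well above background on only 3 of 6 anti-GCGR and 2 of 5 PBS arrays, so its ratio has little liver signal behind it. The reference channel of these 3 dimmer probes was not well above background on any array, and their ratios are mostly liver signal over a floor. On that probe-level adjustment the representative probe had an adjusted p of 0.0544.

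**Figure D3:**
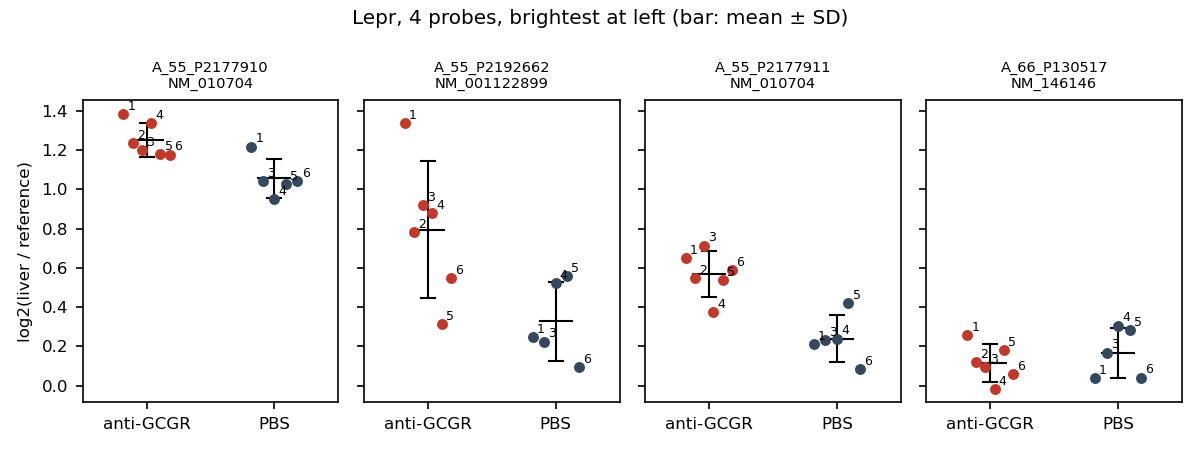
Log2 ratio of liver over reference (vertical axis) on each array for the 4 Lepr probes, with anti-GCGR livers left of PBS livers. Points are arrays and bars are group means with their SD. Both probes on NM_010704 and that on NM_001122899 have the higher anti-GCGR mean, and that on NM_146146 does not.

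Of 20 genes tested around the leptin receptor and its JAK and STAT signalling, 1 rose and 3 fell (8.98% and 5.67% of all genes). Their median log2 fold change was -0.06. Cish, a cytokine-induced inhibitor of STAT5 signalling, rose by 1.18 ± 0.33 (SE; limma adjusted p = 0.0311). Its log2 ratios spanned 1.09 to 3.00 in anti-GCGR livers and -0.33 to 1.33 in PBS livers, and 5 of the 11 fits that left out 1 array did not make the call (those without PBS replicate 1, 3 or 4, and those without anti-GCGR replicate 2 or 4; adjusted p up to 0.0751). The scanner software's ratio (0.0617) and the liver channel alone (0.0864) did not call it either. Sh2b1, an adaptor that enhances JAK2 signalling from the leptin receptor, fell by 0.27 ± 0.06 (0.00960) with no overlap. Leprotl1, a relative of the leptin receptor trafficking protein Leprot, had -0.20 ± 0.06 (0.0492, lost in 9 of 11 such fits, up to 0.111). Leprot, whose first exons overlap those of Lepr in the genome, had 0.16 ± 0.06 (0.0924). Socs3, the feedback inhibitor that leptin induces through STAT3, had 0.19 ± 0.11 (0.269), and Stat3 -0.44 ± 0.15 (0.0662). Nearest to Lepr by departures from the group means were Cant1 (r = 0.945), Amz2 (0.934) and Tmem170 (0.924), none of which passed the test.

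Angptl4, a secreted inhibitor of lipoprotein lipase and a classical PPAR target of fasting, had the largest estimate of the 9 genes and did not pass. By array the log2 ratios were 3.07, 3.35, 2.85, 2.95, 1.65 and 2.68 in anti-GCGR replicates 1 to 6, against 1.44, 2.42, 1.64, 1.98 and 2.65 in PBS replicates 1, 3, 4, 5 and 6. Of the anti-GCGR livers 5 lay above all PBS livers, and the remaining one, replicate 5, lay among the lowest of all. The log2 fold change was 0.73 ± 0.28 (SE, 95% interval 0.12 to 1.35, limma adjusted p = 0.0993). Without anti-GCGR replicate 5, the array that stood apart over all genes, it was 0.96 (adjusted p = 0.00549), and none of the other 10 fits that left out 1 array made the call. The differences within slides 1, 2 and 3 were 1.47, 0.52 and 0.23. Angptl4 varied widely from liver to liver, with a within-group SD of 0.555 (99.2th percentile of all genes, whose median was 0.118).

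Angptl6, a circulating angiopoietin-like protein linked to energy expenditure in mice, had log2 ratios of 0.80 at the lowest, 1.04 at the median and 1.16 at the highest in anti-GCGR livers, against 1.01 to 1.13 in PBS livers. The anti-GCGR values spread to both sides of the PBS values. The log2 fold change was -0.07 ± 0.07 (95% interval -0.21 to 0.07, limma adjusted p = 0.508), and the liver channel alone gave 0.06. The within-array difference, Angptl4 minus Angptl6, was 1.75 ± 0.69 in anti-GCGR livers and 0.94 ± 0.48 in PBS livers (SD, n = 6 and 5; exact permutation p = 0.0563, two-sided, the same after adjustment over 2 pairs).

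Lipoprotein lipase, the enzyme that Angptl4 inhibits, and its regulators gave 3 rises and 0 falls among 16 genes tested (8.98% and 5.67% of all genes). At an unadjusted p under 0.05 they gave 5 and 0, beside 17.7% and 12.8% of all genes. Their median log2 fold change was 0.14. Lpl itself rose by 0.73 ± 0.11 (SE; limma adjusted p = 0.00546). Its log2 ratios were -0.37 to 0.26 in anti-GCGR livers and -0.89 to -0.56 in PBS livers, with no overlap, and its second kept probe gave 0.57. Gpihbp1, the endothelial protein that carries the lipase to the capillary lumen, had 0.41 ± 0.12 (0.0355, lost in 8 of the 11 fits that left out 1 array, up to 0.0876; 0.29 and 0.108 with median centring). Apoa5, an apolipoprotein that favours lipolysis, had 0.28 ± 0.07 (0.0267), with channel differences of 0.76 in liver and 0.45 in the reference. Angptl8, a feeding-induced relative of Angptl4, had 0.29 ± 0.14 and did not pass (0.172). Sinusoidal endothelial markers moved the same way as Gpihbp1. Of 7 of them 3 rose and 0 fell (8.98% and 5.67% of all genes). Their mean log2 ratio was 2.71 to 3.20 in anti-GCGR livers and 2.64 to 2.81 in PBS livers. Their part in these results was not tested, and in whole liver a different number of cells of a type and a different amount of RNA per cell cannot be told apart.

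Of 18 PPAR targets of fat burning, 5 rose and 0 fell (8.98% and 5.67% of all genes). At an unadjusted p under 0.05 the counts were 9 and 0, beside 17.7% and 12.8% of all genes. Their median log2 fold change was 0.16. Plin2, a lipid droplet coat protein, rose by 0.77 ± 0.17 (limma adjusted p = 0.0122). Vnn1, a pantetheinase induced by PPAR alpha, had 0.66 ± 0.19 (0.0360, lost in 7 of the 11 fits that left out 1 array, up to 0.0840; 0.56 and 0.0674 with median centring). Pdk4, a kinase that spares glucose in fasting, had 0.70 ± 0.27 and did not pass (0.101).

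Lect2, a hepatokine first known as a chemotactic factor for neutrophils, did not pass as a ratio, but both of its channels were lower in anti-GCGR livers. Its log2 ratios were 4.67, 4.72, 4.73, 4.76, 4.68 and 4.66 in anti-GCGR replicates 1 to 6, against 4.77, 4.53, 4.59, 4.57 and 4.78 in PBS replicates 1, 3, 4, 5 and 6. The anti-GCGR values lay inside the PBS range, and the log2 fold change was 0.05 ± 0.06 (SE, 95% interval -0.07 to 0.18, limma adjusted p = 0.568). The liver channel on its log2 scale was 14.40, 14.73, 14.69, 14.45, 14.67 and 14.16 in anti-GCGR livers, against 14.95, 15.08, 14.94, 14.72 and 15.13 in PBS livers. There the groups touched only at anti-GCGR replicate 2 and PBS replicate 5, and the difference was -0.45 ± 0.11 (adjusted p = 0.0187, in a channel where 14.4% of all genes were called). The reference channel was 9.77, 10.09, 9.98, 9.70, 10.03 and 9.52 on the anti-GCGR arrays, against 10.23, 10.55, 10.39, 10.22 and 10.45 on the PBS arrays. The groups did not overlap there, although the same reference RNA was hybridised to every array, and the difference was -0.52 ± 0.10 (adjusted p = 0.0230).

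A difference in the reference channel was uncommon. It was called for 1.52% of all genes tested, 1.1% as lower on anti-GCGR arrays, and 87.1% of genes differed there by less than 0.1. Only 35 of 15953 genes had a larger fall in it than Lect2. Of the other 8 members 0 had a difference called by limma in the reference channel (1, Angptl6, had an unadjusted p under 0.05), and they ranged from -0.16 for Ahsg to 0.12 for Angptl6. The ratio therefore carries a reference shift for Lect2 that it does not carry for Adipor2 or Angptl4, each at -0.02. The cause of the reference shift was not tested, and the direction of the Lect2 transcript is not settled by these arrays.

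**Figure D4:**
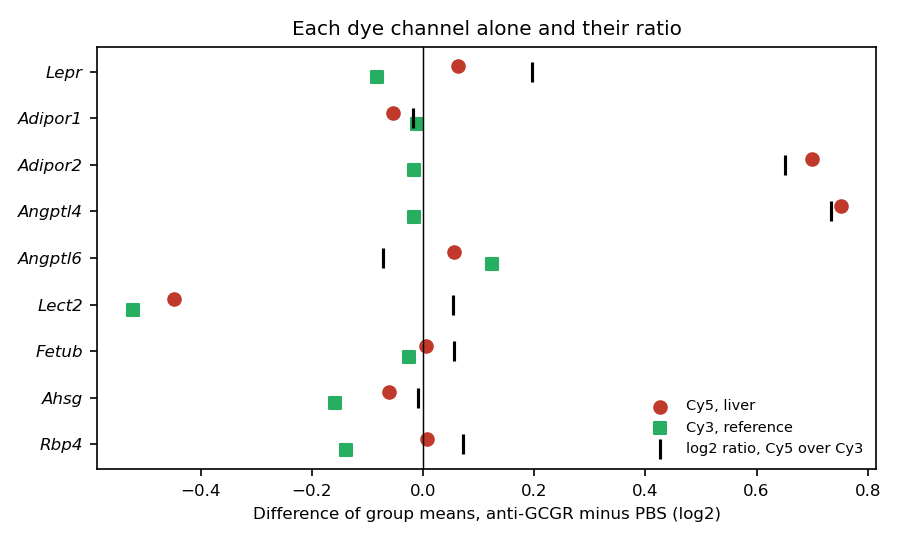
Difference of group means, anti-GCGR minus PBS, on the log2 scale (horizontal axis) for each of the 9 genes, in the liver channel (circles), the reference channel (squares) and their ratio (bars). Lect2 alone lies far to the left in both channels, at -0.45 and -0.52, while its ratio sits at 0.05.

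Fetub and Ahsg encode fetuin-B and fetuin-A, abundant plasma proteins of the cystatin superfamily. Fetuin-A inhibits the insulin receptor kinase and mineral deposition, and fetuin-B keeps the egg coat open to sperm through protease inhibition. Their genes are neighbours, Ahsg at chr16:22892015-22899451 and Fetub at chr16:22918382-22939768 (GRCm38.p6). Fetub had log2 ratios of 6.28, 6.33, 5.99, 6.13, 5.81 and 5.99 in anti-GCGR replicates 1 to 6, against 6.16, 5.86, 5.94, 6.05 and 6.16 in PBS replicates 1, 3, 4, 5 and 6. The anti-GCGR values spread beyond the PBS values on both sides, and the log2 fold change was 0.06 ± 0.09 (SE, 95% interval -0.15 to 0.26, limma adjusted p = 0.743). Ahsg had 5.51, 5.45, 5.56, 5.61, 5.49 and 5.37 in anti-GCGR livers, against 5.53, 5.42, 5.47, 5.46 and 5.64 in PBS livers. Both groups covered nearly the same range, and the log2 fold change was -0.01 ± 0.06 (95% interval -0.13 to 0.11, adjusted p = 0.932). Among 7 other cystatin superfamily genes, 2 were higher and 0 lower at an unadjusted p under 0.05, beside 17.7% and 12.8% of all genes. Past the adjusted threshold 1 rose and 0 fell (8.98% and 5.67% of all genes). It was Cstb, the cytosolic inhibitor cystatin B, at 0.28 ± 0.06 (0.0142; 0.17 and 0.132 with median centring) with no overlap, and the plasma protein Hrg had -0.14 ± 0.08 (0.276; -0.66 in the liver channel and -0.48 in the reference).

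Rbp4, which carries retinol from liver into blood, had log2 ratios of 8.85, 8.88, 8.93, 8.86, 8.62 and 8.84 in anti-GCGR replicates 1 to 6, against 8.76, 8.55, 8.94, 8.65 and 8.89 in PBS replicates 1, 3, 4, 5 and 6. Anti-GCGR replicate 5 was low among its group, yet inside the PBS range. The log2 fold change was 0.07 ± 0.08 (SE, 95% interval -0.10 to 0.24, limma adjusted p = 0.583). Its plasma partner transthyretin, Ttr, had 0.09 ± 0.08 (0.471).

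Around Rbp4, 4 of 26 genes of vitamin A transport and metabolism rose and 2 fell (8.98% and 5.67% of all genes). Their median log2 fold change was 0.08. Lrat, which esterifies retinol for storage in stellate cells, rose by 0.61 ± 0.16 (SE; limma adjusted p = 0.0230; not called in the fits that left out PBS replicate 1, anti-GCGR replicate 3 or anti-GCGR replicate 4, up to 0.0642). Retsat, a retinol saturase, rose by 0.55 ± 0.13 (0.0168), with channel differences of 0.92 in liver and 0.36 in the reference. Cyp26a1, which degrades retinoic acid and is induced by it, fell by 0.80 ± 0.15 (0.00687), with log2 ratios of 4.95 to 5.43 in anti-GCGR livers and 5.37 to 6.30 in PBS livers. Its channels differed by -1.37 in liver and -0.40 in the reference. On the scanner software's own ratio Cyp26a1 had -0.13 (0.506) and Lrat 0.54 (0.439), neither of them called. Rara, a retinoic acid receptor, had -0.31 ± 0.08 (-0.24 on its other kept probe; 0.0279, lost in 6 of the 11 fits that left out 1 array, up to 0.0643). Stellate cell markers moved with Lrat, which is itself one of them. Of 8 markers 3 rose (Pdgfrb, Lrat and Col1a1) and 0 fell, where 8.98% and 5.67% of all genes did. Their mean log2 ratio was -0.06 to 0.47 in anti-GCGR livers and -0.30 to -0.09 in PBS livers. Their part in the vitamin A values was not tested.

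Of 25 other hepatokine genes tested, 2 rose and 2 fell (8.98% and 5.67% of all genes), with a median log2 fold change of 0.04. Gdf2, which encodes BMP9, had 0.39 ± 0.12 (SE; limma adjusted p = 0.0437) and Inhbe, the activin E subunit, 0.34 ± 0.10 (0.0448), each lost in 8 of the 11 fits that left out 1 array (up to 0.108 and 0.106), and neither was called with median centring (0.108 and 0.226) or on the scanner software's ratio (0.496 and 0.137). Thpo, thrombopoietin, had -0.25 ± 0.07 (0.0416, lost in 9 such fits), and its other kept probe 0.01. On the scanner software's ratio Thpo had -0.53 (0.264). Hamp2, a relative of the iron hormone hepcidin, fell by 0.49 ± 0.13 (0.0283, lost in 7 such fits, up to 0.0710). As with Lect2, both channels of Hamp2 were lower on anti-GCGR arrays, with differences of -1.73 in liver and -1.37 in the reference. Other hepatokine genes had both channels lower too, among them Agt (-0.71 and -0.69), Igfals (-0.87 and -0.48) and Fgl1 (-0.49 and -0.37). None of these 3 passed as a ratio. Igfbp1 had both channels higher (0.82 and 0.20). Fgf21, a fasting hepatokine, had the largest estimate and the widest spread, from -1.60 to 2.27 in anti-GCGR livers and -1.61 to 0.58 in PBS livers, and did not pass (1.73 ± 0.59, 0.0669).

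Of 8 genes tested among the receptors and partners of the secreted members, 1 rose and 1 fell (8.98% and 5.67% of all genes). Met, the hepatocyte growth factor receptor and a binding partner of Lect2, fell by 0.36 ± 0.07 (SE; limma adjusted p = 0.00753). The log2 ratios of Met were 1.03 to 1.39 in anti-GCGR livers and 1.51 to 1.60 in PBS livers, with no overlap. Tek, the endothelial receptor Tie2, had 0.27 ± 0.08 (0.0430, lost in 7 of the 11 fits that left out 1 array, up to 0.0943, and 0.07 on the scanner software's ratio). Insr, the target of fetuin-A, had -0.01 ± 0.07 (0.953). Over the 9 lists together, 23 of 149 genes rose and 11 fell, where 8.98% of all genes tested rose and 5.67% fell.

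**Figure D5:**
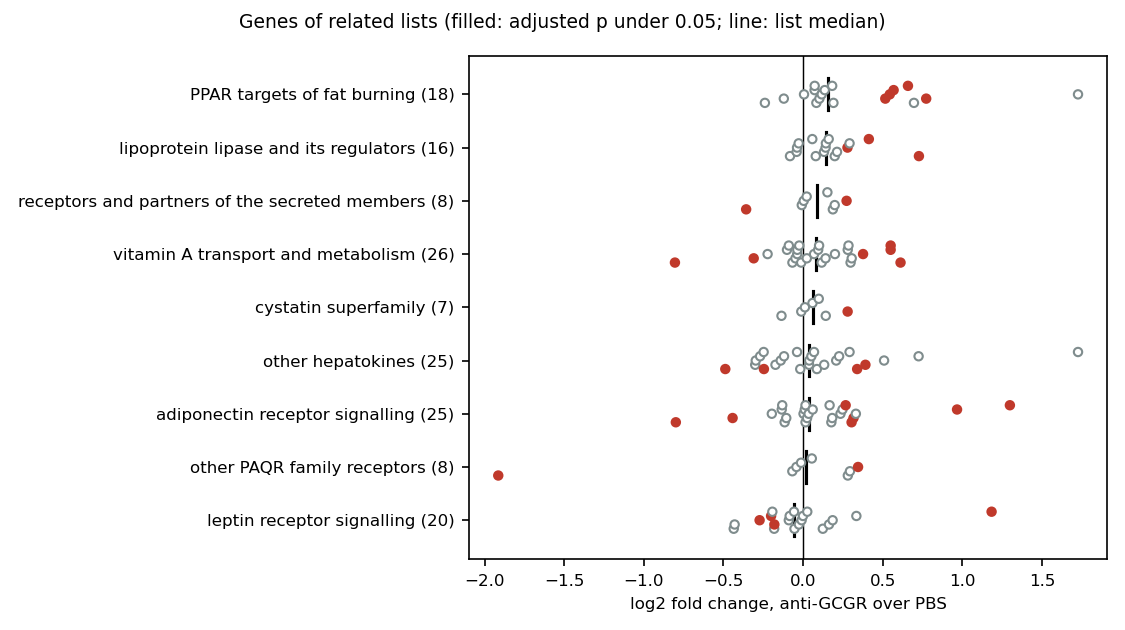
Log2 fold change of anti-GCGR over PBS livers (horizontal axis) for the genes of the 9 related lists, with the number of genes tested in brackets. Filled points passed an adjusted p of 0.05 and vertical bars are list medians, which run from -0.06 for leptin receptor signalling to 0.16 for PPAR targets.

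Markers of fat and of Kupffer cells, both of which a liver sample can hold, were read beside the members. The adipocyte marker Lep was well above background on 0 of 11 arrays, and Adipoq on 4 of 6 anti-GCGR and 5 of 5 PBS arrays. Of 6 adipocyte markers tested 0 rose and 1 fell (Lipe), where 8.98% and 5.67% of all genes did. At an unadjusted p under 0.05, 2 were higher and 2 lower, beside 17.7% and 12.8% of all genes. The higher ones were Fabp4 (log2 fold change 0.45, limma adjusted p = 0.0679) and Cfd (adjusted p = 0.0527). Cfd had log2 ratios of 0.38 to 2.55 in anti-GCGR livers and 0.097 to 1.28 in PBS livers. The lower ones were Lipe (-0.30, 0.0178) and Adipoq (-0.21, 0.0974). The mean log2 ratio of the 6 adipocyte markers was 1.07 to 1.58 in anti-GCGR livers and 0.95 to 1.38 in PBS livers. Of 6 Kupffer cell markers 1 rose and 0 fell, where 8.98% and 5.67% of all genes did. The mean log2 ratio of these markers was 3.71 to 4.28 in anti-GCGR livers and 3.69 to 4.25 in PBS livers. Their part in the member values was not tested.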

How the data were processed

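Liver RNA of 11 db/db mice was measured on 2-colour Agilent arrays, with no dye swap, and the sample titles gave the groups and replicate numbers. Per the labels' protocols, total RNA was amplified to dye-labelled cRNA. The scanner software was Agilent Feature Extraction 11, per the submitters' processing notes (11.5.1.1 per the file headers). Its deposited output holds median spot and background intensity values on a linear scale, flags of 0 or 1 (a score) and a log10 ratio made by the scanner software, per the file headers. A further table of log2 ratios from the authors has a processing not given in the sources used here. Compared with the arrays, it runs Cy5 over Cy3, is not centred by gene, differed from the values here by a median of 0.00329 (members at most 0.0593), and correlated at 0.999964 or more over 39429 probes. Its column medians came to -0.00096, 0.0075, 0.0015, -0.0028, 0.0054 and 0.0013 for anti-GCGR replicates 1 to 6, and -0.0026, 0.0022, 0.00079, 0.0081 and 0.00021 for PBS replicates 1, 3, 4, 5 and 6.

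With limma 3.58.1 in R 4.3.3, median signals were corrected by normexp (offset 50) and normalized by loess within arrays, with control spots at weight 0, 160 uneven spots left out (0 of them of members) and spots of a probe averaged. Probes were named by RefSeq accession in a GRCm38.p6 table (26581 probes named, 12848 not). A probe was kept if its Cy5 signal was well above background on 5 or more of 11 arrays, and the brightest kept probe stood for its gene. Groups were compared by lmFit and eBayes, two-sided, p-values were adjusted over all genes by Benjamini-Hochberg, and calls were made under 0.05. Channel values are log2 signals after normexp, with each channel quantile-normalized between arrays by itself and without loess. The 2 channel differences of a gene therefore need not subtract to its log2 fold change. The test of the reference channel over all genes was added after seeing the data. The number of arrays limits the precision. Named genes are the members, up to 2 largest rises and 2 largest falls of each list, and the 3 genes nearest to each changed member. Gcgr and list genes beyond these were picked after their values were seen. The members and lists were chosen with earlier results of these data known. Some genes of the lists are not reported here by name.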

Additional observations from a re-analysis of the deposited data

Results flagged for a closer look

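Rbp4 in anti-GCGR replicate 5 had a log2 ratio of 8.62, far from the other anti-GCGR livers, which lay at 8.84 to 8.93. Its gap to the nearest of them was 0.721 of the group's range, above Dixon's critical value for 6 samples. It was the only such sample in 24 groups of probe values checked, and chance gives about 1 in 20. The same array stood apart over all genes. For Rbp4 its liver channel, 18.05 on the log2 scale, lay inside the 18.02 to 18.18 of the other anti-GCGR arrays. Its reference channel, 9.60, lay above their 9.22 to 9.37, so the low ratio came with a high reference signal and not a low liver signal.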

How the results depend on the processing

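The rise of Adipor2 passed under every normalization, filter, block and left-out array tried. Members changed, 2 in all, came to 1 with median centring, the scanner software's ratio, no filter on dim probes or the replicate block, and to 1 to 3 without single arrays. In Cy5 alone the count was again 2, but of a different pair, with 1 rise and 1 fall. Adipor2 rose there and Lect2 fell (limma adjusted p = 0.0187), and Lepr was not called (0.696). The replicate block called 1050 genes in place of 2336, and 17 in place of 34 of the related lists. Leaving out 1 array gave 1240 to 3868 genes (highest without anti-GCGR replicate 5) and 17 to 59 related genes. Replicate numbers did not pair the samples, with correlations of same-numbered deviations of 0.125, 0.0267, -0.0132, -0.125 and 0.141 for numbers 1, 3, 4, 5 and 6, and only number 6 matching itself best. The block took Lepr to an adjusted p of 0.0736.

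Some signs turned. With median centring Lect2 had -0.056 and Fetub -0.058. In Cy5 alone Lect2 had -0.45 and Angptl6 0.056. The reference channel, which is no estimate of the liver's change, had -0.083 for Lepr and -0.017 for Adipor2. Ahsg had 0.00055 with the replicate block, and single arrays left out gave it -0.032 to 0.024 and Adipor1 -0.039 to 0.0035. The cause was not tested. The share of changed genes that rose was 61.3%, against 21.3% with median centring (582 higher, 2146 lower), 45.2% with the scanner software's ratio (978 and 1185) and 52.9% in Cy5 alone (1215 and 1082). Scaling between arrays by Aquantile alters brightness and leaves ratios as they are. Dim reference signal limits the ratios of the 3 weaker Lepr probes.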
